A study of Mus musculus with 2 samples.

Results

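The collagen and basement membrane genes were picked by name from the non-control probes of 2 two-color arrays of postpartum mouse brain: every gene called Col, a digit and an a chain, every laminin alpha, beta or gamma chain, and Fn1, Dcn, Lum, Nid1 and Nid2. The rule matched 57 of 27962 gene names, by 111 of 41174 probes. One of those names, Col4a3bp, encodes a ceramide transporter and no collagen (its current symbol is Cert1), so its 4 probes are described apart and the counts below are over 107 probes of 56 genes: 40 collagens, 11 laminin chains and 5 other matrix proteins.

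The brains came from female dams, 8 weeks old, on the day of parturition (P0), and RNA was taken from whole brain. The paper obtained C57BL/6J mice and backcrossed its transgenic lines to that strain. It does not state the strain background of the TDAG51-/- mice. On the first array, a TDAG51-/- dam brain sample was labeled with Cy3 and a TDAG51+/+ (wild-type) sample with Cy5. On the second, a TDAG51-/- sample was again in Cy3 and a TDAG51-/-Tg2 sample, which also lacks the endogenous gene but carries a murine TDAG51 transgene under the BAI1-AP4 promoter, was in Cy5. That promoter acts in brain, mainly in cerebral cortex and hippocampus, and the Tg2 animals are 1 transgenic line. Each comparison rests on 1 array, with no dye swap and no replicate, so no test was possible, genotype and dye cannot be told apart in the ratios on an array, and all values below describe these samples only. How many dams each sample held is not given in the sources used here, nor whether both TDAG51-/- channels held the same RNA.

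Collagens are trimers of alpha chains wound into a triple helix, in which glycine recurs, each time followed by 2 other residues. Fibrillar collagens build the fibers of connective tissue, while collagen IV forms a sheet that, with laminin heterotrimers of an alpha, a beta and a gamma chain and with nidogen as a linker, makes up the basement membrane. In brain these sheets lie around blood vessels and under the meninges, where endothelial cells, mural cells, fibroblasts and astrocytes supply their components. In whole tissue, fewer cells of a kind and less RNA per cell cannot be told apart.

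Many of these genes carried more than 1 probe, each 60 bases long, and several results below differ between the probes of a gene. The sequences of 5 such probes, as deposited, are shown here because those results turn on them. Both Lama4 probes that read higher in TDAG51-/- brain share the 29 bases in capitals, so they measured nearly one place of the transcript. In the Col5a3 probe the capitals mark 7 glycine codons of an open frame, each followed by 2 other codons, which places it in the triple helix, and it is the probe of that gene that did not pass 2-fold. The Col1a1 and Col23a1 probes are shown with no capitals. In both comparisons that involve TDAG51-/-Tg2, this Col1a1 probe stood furthest from the other probes of its gene. The Col23a1 probe did so in both comparisons that involve TDAG51-/- brain.
Lama4 A_51_P212420, chr10:38885787-38885846, plus strand: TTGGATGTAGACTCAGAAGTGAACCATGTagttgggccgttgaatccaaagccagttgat
Lama4 A_52_P7554, chr10:38885025-38885815, plus strand, spliced: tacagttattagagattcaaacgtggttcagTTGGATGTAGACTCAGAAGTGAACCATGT
Col5a3 A_52_P503796, chr9:20655471-20656200, minus strand, spliced: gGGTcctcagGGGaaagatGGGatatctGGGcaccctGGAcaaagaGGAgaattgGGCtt
Col1a1 A_51_P377094, chr11:95059777-95059836, plus strand: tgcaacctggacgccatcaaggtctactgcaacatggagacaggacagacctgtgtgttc
Col23a1 A_51_P457557, chr11:51524680-51526226, plus strand, spliced: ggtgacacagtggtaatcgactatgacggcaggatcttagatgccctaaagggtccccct
Coordinates are those of the mouse assembly mm7, as the array files give them. Glycine codons spaced in this way through an open frame were found in 3 of the 107 probes, those of Col5a1, Col5a3 and Col11a2 with 6, 7 and 6 of them.

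Intensities are given below as background-corrected, dye-adjusted values in arbitrary units, always in the order TDAG51-/- on the first and second array, TDAG51+/+ and TDAG51-/-Tg2. They compare samples for 1 probe, not 1 probe with another. Ranges over several probes include probes dim in 1 channel, at their measured ratio. A probe was counted in a comparison if it was well above background in at least 1 of the channels compared, and called apart at 2-fold (a log2 ratio of at least 1 or at most -1), the cutoff of the study's methods. Of the 107 probes, 74 were well above background in every channel, 12 in none and none was saturated. Only Col12a1 and Col28a1 had no probe above background in any channel. The array's probe for the targeted gene, listed as Phlda1, read 350.5 raw units in TDAG51-/- and 7283 in TDAG51+/+ on the first array. The second gave 44.1 in TDAG51-/- and 50.5 in TDAG51-/-Tg2, and there neither was above background. The transgene ends in an SV40 poly A signal and whether it holds the bases under this probe is not given in the sources used here, so the probe does not check the transgene. The 10 general brain genes checked (neuronal, astrocyte and myelin markers) were all above background.

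The rest of the brain was not alike in the samples, and the values stand here because they move with the comparisons. Of 13 cerebellar markers 10 were at least 2-fold higher in TDAG51-/- than in TDAG51+/+ and 11 than in TDAG51-/-Tg2 brain, and of the hindbrain and brainstem markers 9 of 15 and 10 of 14. Of 11 striatal markers 8 were lower in each, and of 12 cortical and hippocampal markers 6 and 7. Summed over their lists, cerebellar markers read 411455 and 416098 in the TDAG51-/- channels against 123793 and 127122, and striatal markers 81541 and 77157 against 198947 and 201779. Blood markers summed to 17099 and 121035 in the TDAG51-/- channels, 89234 in TDAG51+/+ and 61972 in TDAG51-/-Tg2, so there the TDAG51-/- channels differed from each other too. The part of these differences in the results below was not tested.

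In TDAG51-/- against TDAG51+/+ brain, 93 probes of 54 genes could be counted. Probes higher in TDAG51-/- brain were of several structural kinds, from the collagen V chain Col5a3 (5.59-fold) and the collagen VI chain Col6a1 (3.18-fold) to the vascular laminin chain Lama4 (2.95-fold). The lower ones were probes of Col15a1, Col24a1 and Col6a2 and 1 of 3 probes for Col1a1, by 2.23-fold to 2.30-fold. Other probes of these genes often did not follow. The other Col5a3 probe was at -0.36, a further Lama4 probe at -0.51 and the other Col24a1 probe at -0.30, while the second Col18a1 probe was at 0.73. In all, 13 probes (14%) passed 2-fold on the higher side and 4 (4.3%) on the lower side, against 4.9% and 4.42% of all 34571 probes. The median log2 ratio was 0.12 over the counted probes and 0.01 over all probes. With 1 value a gene, that of its brightest probe, 8 of 53 genes were higher and 3 lower, against 4.87% and 4.63% of all genes. Taken so, 3 of 54 genes were higher and 1 lower against TDAG51-/-Tg2 (4.72% and 3.96% of all genes), and 4 of 52 higher and 1 lower between TDAG51-/-Tg2 and TDAG51+/+ (3.49% and 4.17%). By the median of a gene's probes, fewer genes were higher in each comparison, as given in the last section.

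Against TDAG51-/-Tg2 brain, 5 of 93 probes (5.38%) were at least 2-fold higher in TDAG51-/- and 3 (3.23%) lower. The shares over all 33802 probes were 4.72% and 3.86%, so the members lay near the background. The higher ones were probes of Col5a3, Col18a1, Col23a1, Col27a1 and Col6a1, and the lower ones of Col1a1, Col23a1 and Col6a2. The median was 0.01 over members and 0.01 over all probes. Both comparisons have TDAG51-/- brain on one side.

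Between the controls, compared by Cy5 across the arrays, 9 of 90 probes (10%) read 2-fold or more higher in the TDAG51-/-Tg2 sample and 2 (2.22%) lower, against 3.78% and 4.13% of all 33377 probes. Those higher were Col1a1, Col25a1, Col3a1, Col11a1, Col14a1, Col8a1, Col23a1 and both overlapping Lama4 probes, and those lower were Col15a1 and Col16a1. Both TDAG51-/- channels were compared in the same way, although they may hold different RNA, and blood genes and the Phlda1 probe differed between them. None of 92 member probes was 2-fold apart between them, against 0.14% higher and 0.225% lower of 34207 probes. The widest gap was that of Col15a1, at a log2 ratio of -0.90.

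**Figure D1:**
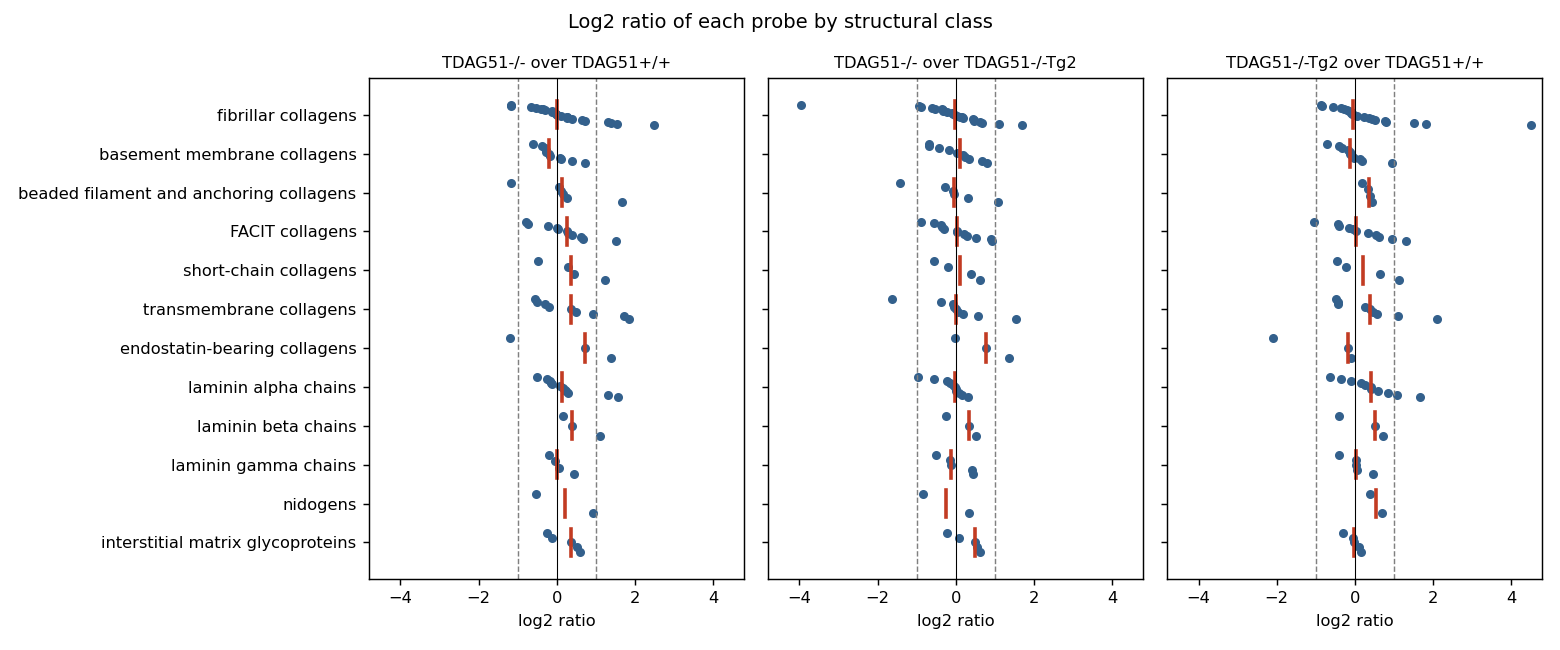
Log2 ratio (x axis) of each counted probe (points) in its structural class (rows), with the class median (red bar) and the 2-fold cutoffs (dashed), in 3 comparisons (panels). Most points lie between the dashed lines, and the single probe furthest out is that of Col1a1, at -3.96 in the middle panel and 4.51 on the right.

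Among the fibrillar collagens, 4 of 23 probes were higher and 2 lower in TDAG51-/- when compared with TDAG51+/+ brain, with a median log2 ratio of 0.00. Against TDAG51-/-Tg2 the numbers were 2 and 1 of 23, with a median of -0.02. For this and the classes below, the shares over all probes were 4.9% higher and 4.42% lower against TDAG51+/+. Against TDAG51-/-Tg2 they were 4.72% and 3.86%, so a few calls in a small class lie near them. Col5a3, a chain of collagen V, gave the largest excess over TDAG51+/+. Its probe A_51_P241995 (NM_016919, chr9:20639940-20639999) read 757 and 771 in the TDAG51-/- channels, 135 in TDAG51+/+ and 237 in TDAG51-/-Tg2. Both controls were thus below both TDAG51-/- channels, by 5.59-fold and 3.26-fold, and the TDAG51-/- channels lay within 0.02 of each other on the log2 scale. The triple-helix probe of the same gene, printed above and 15531 bases away on the chromosome, read 124 and 150, against 159 and 217. Its log2 ratios were -0.36 and -0.53, on the other side of 0.

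Col1a1 and Col1a2 encode the chains of type I collagen, of which 2 come from Col1a1 in each molecule, and Col1a1 had 3 probes above background. The last one along the gene, A_52_P525107 (chr11:95060800-95060859), spotted repeatedly on the array, read 941 and 899 in TDAG51-/-, 2100 in TDAG51+/+ and 1740 in TDAG51-/-Tg2. It was 2.23-fold lower than TDAG51+/+ and 1.94-fold lower than TDAG51-/-Tg2, with an SD of its log2 ratio over spots of 0.05 and 0.03. The first one, A_52_P658611, read 3872 and 3795, against 5108 and 4784, which are log2 ratios of -0.40 and -0.33. The middle one, A_51_P377094, lies close before the last and was high in TDAG51-/-Tg2, unlike both others. It read 154 and 188 in TDAG51-/- and 128 in TDAG51+/+ but 2920 in TDAG51-/-Tg2. That was 15.5-fold over the TDAG51-/- channel of its array and 22.8-fold over TDAG51+/+. The Col1a2 probe A_51_P182303 read 16465 and 14857 in TDAG51-/-, 12474 in TDAG51+/+ and 9747 in TDAG51-/-Tg2, with log2 ratios of 0.40 and 0.61.

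Some genes outside the matrix also read far higher in TDAG51-/-Tg2 than in TDAG51+/+ brain, and their values are given beside those of Col1a1. The pituitary hormone genes Prl and Gh differed by 47.6-fold and 15.6-fold, from 100 to 4759 for Prl and from 89.3 to 1395 for Gh, while the other 6 counted genes of the pituitary list lay between log2 ratios of -0.27 and 0.69. Rgs5, a pericyte gene, differed by 3.77-fold and Myh11, of smooth muscle, by 2.06-fold, while the other 9 of 11 mural cell genes lay between -0.43 and 0.92 and the list's median was 0.34. The TDAG51-/- channels also differed from each other, at 109.6 and 254.4 for Prl, 92.35 and 131.9 for Gh, and 5469 and 2558 for Rgs5. Over the TDAG51-/- channel of its own array, TDAG51-/-Tg2 was 18.7-fold higher for Prl, 10.6-fold for Gh and 6.57-fold for Rgs5. Whether these genes share a source with the Col1a1 signal was not tested.

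Col3a1, the chain of collagen III found in vessel walls, also differed between its probes, but with another sample apart. Its last probe A_51_P515605 (chr1:45585395-45585454) read 377 and 423 in TDAG51-/-, 151 in TDAG51+/+ and 529 in TDAG51-/-Tg2. TDAG51+/+ was the low sample, 2.51-fold below TDAG51-/- and 3.51-fold below TDAG51-/-Tg2, and TDAG51-/- and TDAG51-/-Tg2 differed by a log2 ratio of -0.32. The probe A_52_P684242 at its other end read 315, 332, 325 and 306 and showed no sample apart from the rest.

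Col11a1 and Col27a1 are minor fibrillar chains best known from cartilage. Col11a1 (A_52_P507877) read 329 and 373 in TDAG51-/-, 126 in TDAG51+/+ and 362 in TDAG51-/-Tg2, so TDAG51+/+ was again the low sample, at 2.61-fold below TDAG51-/-. Its other probe gave log2 ratios of 0.64 and 0.47 for TDAG51-/- over both controls. Col27a1 (A_52_P480088) read 804 and 858 in TDAG51-/-, 279 in TDAG51+/+ and 397 in TDAG51-/-Tg2, with TDAG51-/- above both controls by 2.88-fold and 2.16-fold. The other Col27a1 probes were also on the higher side or near 0, at 0.73 and 0.12 against TDAG51+/+.

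Col24a1, a fibrillar chain of developing bone and cornea, was the only gene of the class besides Col1a1 with a probe 2-fold lower. That probe, A_51_P408430, read 317 and 313 in TDAG51-/-, 719 in TDAG51+/+ and 400 in TDAG51-/-Tg2, a 2.27-fold and a 1.28-fold difference. The high sample was TDAG51+/+. The other Col24a1 probe, A_52_P468927, read 212 and 192, against 261 and 226, and was only at -0.30 and -0.23. Probes of Col2a1, Col5a1, Col5a2 and Col11a2 lay between -0.88 and 0.45 in both comparisons with TDAG51-/- brain.

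**Figure D2:**
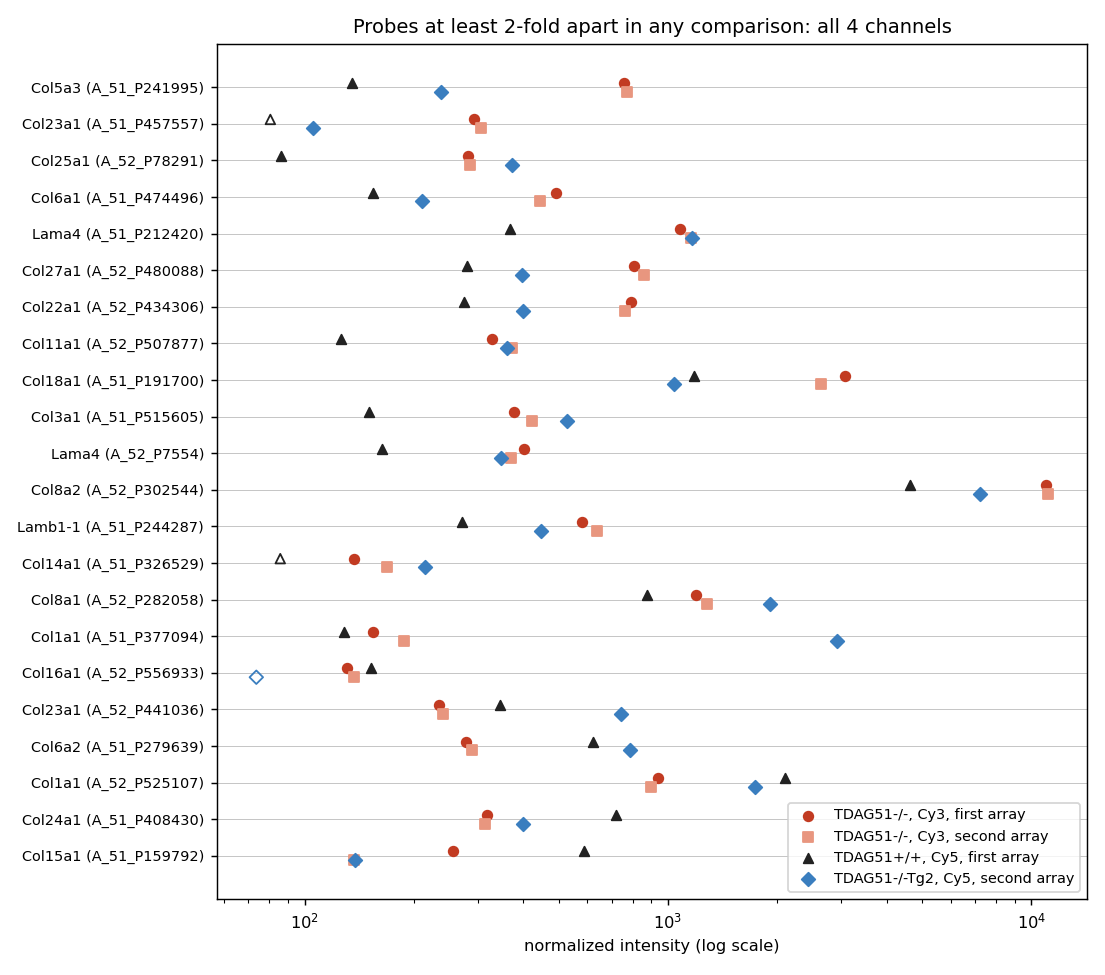
Normalized intensity (x axis, log scale) in all 4 channels of the 22 probes at least 2-fold apart in any comparison, ordered by the log2 ratio of TDAG51-/- over TDAG51+/+, open where a channel was not well above background. The red symbols of both TDAG51-/- channels nearly coincide except for Col15a1, at 256 and 137, while TDAG51-/-Tg2 (blue) lies now beside TDAG51-/- and now beside TDAG51+/+ (black).

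The basement membrane collagens, the 6 chains of collagen IV, had no probe 2-fold apart in any of the 3 comparisons, out of 10 or 11 counted in each. Their median log2 ratios were -0.21 against TDAG51+/+ and 0.11 against TDAG51-/-Tg2. The Col4a1 and Col4a2 chains form the collagen IV of nearly all vessels. Col4a1 (A_52_P518827) read 535 and 492 in TDAG51-/-, 411 in TDAG51+/+ and 787 in TDAG51-/-Tg2, and its other probe 292 and 299 against 446 and 484. The Col4a1 probes thus differed in sign against TDAG51+/+, at 0.38 and -0.61, but not against TDAG51-/-Tg2, at -0.68 and -0.69. The Col4a2 probes, 660 bases apart, differed in sign against both, at -0.39 and -0.43 for the one and 0.72 and 0.81 for the other. Col4a3, Col4a4, Col4a5 and Col4a6 lay between -0.29 and 0.12 against TDAG51+/+ and between -0.17 and 0.67 against TDAG51-/-Tg2, over counted probes.

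Among the laminins, Lama4 encodes the alpha chain of the laminins of endothelial basement membranes. The probe A_51_P212420 (NM_010681) read 1083 and 1158 in TDAG51-/-, 367 in TDAG51+/+ and 1162 in TDAG51-/-Tg2. The overlapping A_52_P7554 read 401 and 370, against 163 and 348. On both, TDAG51+/+ was the low sample, 2.95-fold and 2.46-fold below TDAG51-/-, and TDAG51-/-Tg2 was level with TDAG51-/- at log2 ratios of 0.00 and 0.09. Of the 2 Lama4 probes further upstream, A_52_P78714 read 77.9 and 81.5, against 111 and 86.4, and A_51_P212427 was above background in TDAG51+/+ alone. Against TDAG51+/+ the former was at -0.51 and the latter at least 1.19-fold lower, so that the excess in TDAG51-/- was measured at one end of the transcript.

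Laminin beta1, the usual partner of Lama4 with gamma1 in vessels, is listed as Lamb1-1 (now Lamb1). It read 580 and 639 in TDAG51-/-, 271 in TDAG51+/+ and 446 in TDAG51-/-Tg2, which is 2.14-fold over TDAG51+/+ and 1.43-fold over TDAG51-/-Tg2. The gamma1 chain, Lamc1, read 5329 and 5416, against 3921 and 4004, a log2 ratio of 0.44 in each case. The other beta chains were closer: Lamb2, the beta chain of mature vessels and synapses, was at 0.38 and -0.24, and Lamb3, of epithelia, at 0.16 and 0.35. In all, 3 of 19 laminin probes counted against TDAG51+/+ were higher and none lower, and none of 19 counted against TDAG51-/-Tg2 passed in either direction.

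Among the remaining alpha chains, Lama2, the chain of muscle and of astrocyte-made basement membrane, was within 0.32 of 0 in both comparisons on each of 3 probes. Lama1 of the meningeal basement membrane was at -0.13 against TDAG51+/+ on one probe and at least 1.15-fold higher on the other, and Lama5 of mature vessels at least 1.03-fold higher, where TDAG51+/+ was not well above background. The Lama3 probes of epithelial laminin were at -0.14 and -0.18 against TDAG51+/+ and at -0.55 and -0.96 against TDAG51-/-Tg2, where TDAG51-/-Tg2 read highest. Lamc3 was at -0.04 against TDAG51+/+ on its one counted probe, and on another, above background in TDAG51-/-Tg2 alone, at least 1.41-fold lower than there.

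Nidogens join the laminin and the collagen IV sheet, and their genes lay on different sides of 0. Nid1 read 2196 and 2364 in TDAG51-/-, 1148 in TDAG51+/+ and 1861 in TDAG51-/-Tg2, log2 ratios of 0.94 and 0.35. For Nid2 the readings were 150 and 159 in TDAG51-/-, 218 in TDAG51+/+ and 285 in TDAG51-/-Tg2, or -0.54 and -0.84. Neither gene passed 2-fold.

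Collagen VI, which forms beaded filaments at the border of basement membrane and interstitium, is assembled from alpha1, alpha2 and alpha3 chains, and the probes of its chains lay on different sides of 0. Col6a1 (chr10:76364050-76364109) read 491 and 444 in TDAG51-/-, 154 in TDAG51+/+ and 210 in TDAG51-/-Tg2. Both controls were lower, by 3.18-fold and 2.11-fold. Col6a2 (A_51_P279639, chr10:76251837-76251896) read 279 and 290 in TDAG51-/-, 622 in TDAG51+/+ and 786 in TDAG51-/-Tg2, and there both controls were higher, by 2.23-fold and 2.72-fold. Col6a3 (A_52_P479262) read 285 and 291, against 266 and 352, within 0.27 of 0. A second Col6a2 probe, above background in the TDAG51-/- channels alone, gave only bounds, at least 1.11-fold over TDAG51+/+ and none over TDAG51-/-Tg2. Col7a1, the anchoring fibril collagen, read 9220, 9616, 8782 and 10023 and was within 0.07 of 0 in both comparisons with TDAG51-/-.

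Col15a1 and Col18a1 encode the endostatin-bearing collagens of vascular and epithelial basement membranes. Both Col18a1 probes were on the higher side. The probe A_51_P191700 (NM_009929, chr10:76707663-76707722) read 3063 and 2645 in TDAG51-/-, 1180 in TDAG51+/+ and 1039 in TDAG51-/-Tg2, a 2.59-fold and a 2.55-fold excess. The second Col18a1 probe, 245 bases away, read 3524 and 3375, against 2118 and 1964, log2 ratios of 0.73 and 0.78. Col15a1 (A_51_P159792) read 256 and 137 in TDAG51-/-, 589 in TDAG51+/+ and 138 in TDAG51-/-Tg2. TDAG51+/+ was the high sample, 2.30-fold over TDAG51-/- on its array and 4.27-fold over TDAG51-/-Tg2, but here the TDAG51-/- channels were themselves 0.90 apart on the log2 scale. Taken as the difference of both arrays' ratios, the log2 ratio of TDAG51-/-Tg2 over TDAG51+/+ was -1.20 in place of -2.10. The second Col15a1 probe, 170 bases away, was above background in no channel, TDAG51+/+ included, so the Col15a1 values rest on 1 probe.

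The transmembrane collagens had 2 of 9 probes higher and none lower in TDAG51-/- against TDAG51+/+ brain, and 1 higher and 1 lower against TDAG51-/-Tg2. Col25a1, the precursor of a protein found in amyloid plaques, is made by neurons. Its probe A_52_P78291 read 282 and 286 in TDAG51-/-, 86.0 in TDAG51+/+ and 372 in TDAG51-/-Tg2, so TDAG51+/+ was 3.28-fold below TDAG51-/- and 4.32-fold below TDAG51-/-Tg2. A further probe, A_51_P333929, read 497 and 508, against 702 and 525, with TDAG51+/+ the highest.

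Col23a1 had 3 probes with 3 patterns. A_51_P457557 read 292 and 306 in TDAG51-/- and 106 in TDAG51-/-Tg2 and was not well above background in TDAG51+/+, so that TDAG51-/- was at least 3.63-fold over TDAG51+/+ and 2.90-fold over TDAG51-/-Tg2. A_52_P441036, 15460 bases further along, read 234 and 241 in TDAG51-/-, 346 in TDAG51+/+ and 745 in TDAG51-/-Tg2, and TDAG51-/-Tg2 was 3.09-fold over TDAG51-/-. The probe between them, A_52_P431116, read 3827, 3372, 4732 and 3518 and was at -0.31 and -0.06. Col13a1, of muscle synapses, lay between -0.19 and 0.48. Col17a1, of epithelial attachment, was not well above background in TDAG51+/+, and TDAG51-/- was at least 1.28-fold and 1.80-fold higher on its probes and at 0.01 and 0.57 against TDAG51-/-Tg2.

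FACIT collagens, which sit on the surface of fibrils and whose own triple helix is interrupted, had 1 of 11 probes higher against TDAG51+/+ and none of 12 apart against TDAG51-/-Tg2. That one was a Col22a1 probe, A_52_P434306, which read 789 and 761 in TDAG51-/-, 275 in TDAG51+/+ and 400 in TDAG51-/-Tg2, or 2.87-fold and 1.90-fold. The other Col22a1 probe read 283 and 295, against 283 and 546. Col14a1 (A_51_P326529) was not well above background in TDAG51+/+ and read 215 in TDAG51-/-Tg2, at least 2.50-fold more. Col16a1 (A_52_P556933) read 152 in TDAG51+/+ and was not well above background in TDAG51-/-Tg2, which leaves only at least 1.75-fold. The other Col16a1 probe, A_51_P291062, above background in every channel, was on the other side of 0 between these samples, at 0.34, and at 0.62 for TDAG51-/- over TDAG51+/+. Col19a1, expressed by interneurons, was at -0.74 and -0.79 against TDAG51+/+ on both probes and at -0.30 and -0.57 against TDAG51-/-Tg2. Col9a2, Col9a3 and Col20a1 were within 0.52 of 0.

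Of the short-chain collagens, Col8a2 was higher in TDAG51-/- than in TDAG51+/+ brain. Col8a1 and Col8a2 form the hexagonal lattices of corneal and vascular endothelium. Col8a2 read 10982 and 11116 in TDAG51-/-, 4636 in TDAG51+/+ and 7244 in TDAG51-/-Tg2, a 2.37-fold and a 1.53-fold difference. Col8a1 (A_52_P282058) read 1195 and 1285 in TDAG51-/-, 875 in TDAG51+/+ and 1910 in TDAG51-/-Tg2, with TDAG51-/-Tg2 2.18-fold over TDAG51+/+. A second probe listed as Col8a1, for the cDNA AK030674, did not follow it, at -0.22 between the same samples. Col10a1 was at -0.48 and -0.19 in the comparisons with TDAG51-/- brain.

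The interstitial glycoproteins showed small differences. Decorin (Dcn) and lumican (Lum), proteoglycans that bind collagen fibrils, were expressed in every sample. Dcn (A_51_P334104) read 7729 and 8344 in TDAG51-/-, 5992 in TDAG51+/+ and 5893 in TDAG51-/-Tg2. Both Dcn probes lay between 0.37 and 0.53, and Lum, which read 1649 and 1866 against 1090 and 1207, was at 0.60 and 0.63. Fibronectin (Fn1) was within 0.25 of 0 on both probes counted. Col4a3bp, which is no matrix gene, was at 0.31, 0.71 and 0.88 against TDAG51+/+ and at 0.33, 0.15 and 0.18 against TDAG51-/-Tg2 on its 3 counted probes.

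**Figure D3:**
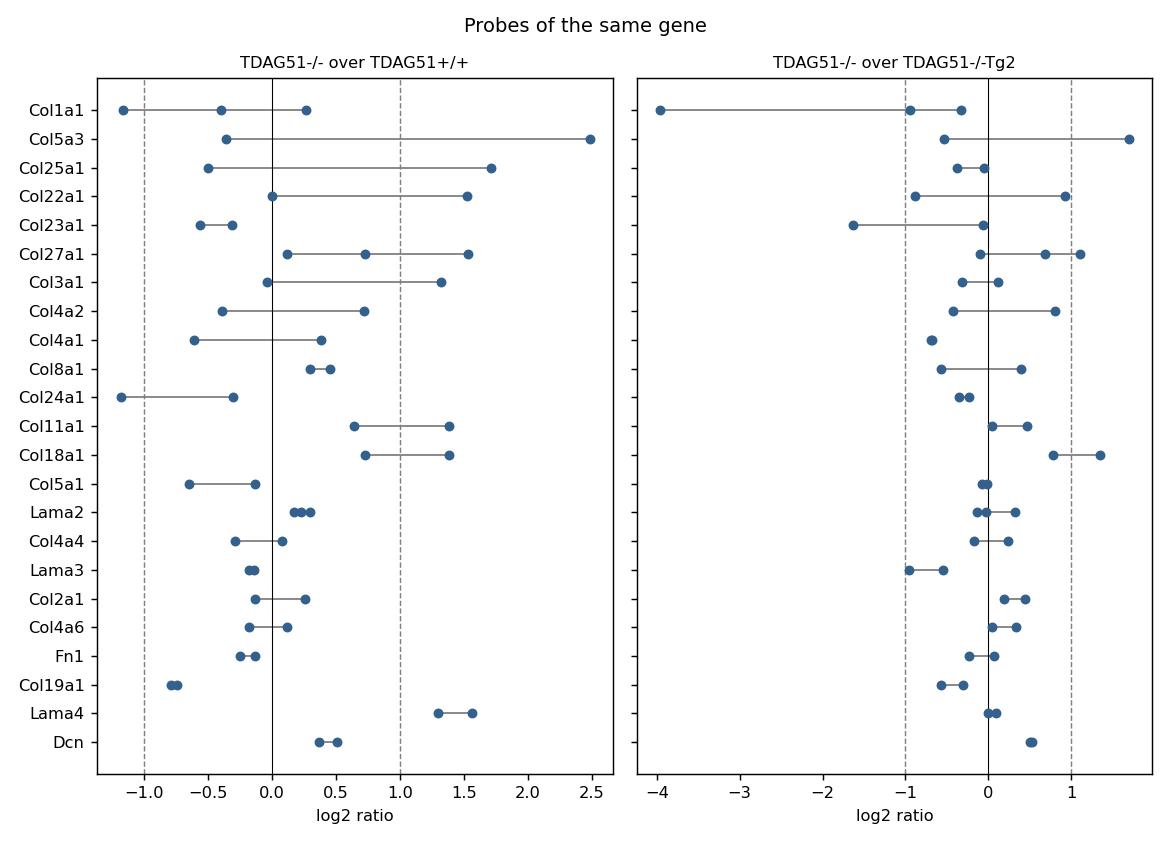
Log2 ratio (x axis) of TDAG51-/- over TDAG51+/+ (left) and over TDAG51-/-Tg2 (right) for each probe (points, joined by a line) of 23 genes with at least 2 probes well above background in all channels, ordered by their wider range. Col1a1 and Col5a3 have the widest lines and Dcn stands last, and dashed lines mark 2-fold.

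How far probes of a gene lay apart was counted over genes with at least 2 probes above background in both channels of a comparison. Against TDAG51+/+ this gave 28 genes with a median range of 0.58 on the log2 scale, and 8 of them (28.6%) had probes at least 2-fold apart from each other. Over the other 6995 such genes on the array the median range was 0.48 and the share 19%. Against TDAG51-/-Tg2 the median range was 0.42 for 26 genes, 6 of them (23.1%) over 2-fold, and 0.47 and 18.2% for the others. Probes of a gene were on opposite sides of 0 in 13 genes in each of these comparisons. Only Col23a1 had probes past 2-fold in both directions on an array, that of TDAG51-/-Tg2. Repeated spots of a probe lay far closer: the log2 ratio had an SD of 0.03 to 0.12 over 8 to 10 spots for the probes of Col1a1, Col2a1, Fn1 and Lama2 that were spotted repeatedly.

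Of the 56 genes 9 lie on chromosome 10, which also carries the targeted gene: Col6a1, Col6a2, Col10a1, Col13a1, Col18a1, Dcn, Lum, Lama2 and Lama4. Against TDAG51+/+, the median over their 18 probes was 0.34, with 4 higher and 1 lower, while the 75 counted probes on other chromosomes had a median of 0.07, with 9 higher and 3 lower. The overlapping Lama4 probes make up 2 of the 4 higher on chromosome 10. Of all 1630 counted probes on chromosome 10, 6.38% were higher and 3.62% lower, with a median of 0.03. Against TDAG51-/-Tg2 the medians of the members were 0.09 on chromosome 10 and 0.00 elsewhere, and between TDAG51-/-Tg2 and TDAG51+/+ they were 0.15 and 0.05, with 2 of 17 member probes on chromosome 10 higher and none lower, beside 4.06% and 2.98% of all its probes.

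Other genes of the matrix were taken as 1 probe a gene from lists of partners, enzymes and receptors. None of 8 basement membrane partners passed 2-fold against TDAG51+/+, and Smoc2, a calcium-binding matrix protein, was 4.28-fold lower in TDAG51-/- than in TDAG51-/-Tg2 brain. It read 410 and 384 in TDAG51-/-, 592 in TDAG51+/+ and 1646 in TDAG51-/-Tg2. Small leucine-rich proteoglycans beside Dcn and Lum had none of 6 apart in either comparison with TDAG51-/-.

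Among 22 counted enzymes and chaperones of collagen, 2 were higher and 1 lower when TDAG51-/- was set against TDAG51+/+ brain. The shares over all genes were 4.87% and 4.63%. Against TDAG51-/-Tg2, 3 of 20 were higher and none lower, beside 4.72% and 3.96% of all genes. These were Adamts2, Bmp1 and Leprel1, the last at least 2.22-fold higher. In TDAG51-/-Tg2 against TDAG51+/+, none of 22 was higher and 1 lower, Leprel1 by at least 2.37-fold, beside 3.49% and 4.17% of all genes. Adamts2 and Bmp1 cleave the ends of procollagen. Adamts2 read 2944 and 2746 in TDAG51-/-, 1368 in TDAG51+/+ and 1079 in TDAG51-/-Tg2, and Bmp1 2175 and 2425, against 865 and 1093. Both controls were thus lower for both genes, by 2.15-fold and 2.54-fold for Adamts2 and by 2.51-fold and 2.22-fold for Bmp1. Loxl1, a crosslinking enzyme above background in TDAG51+/+ alone, was at least 2.01-fold lower in TDAG51-/-. The collagen chaperone Serpinh1 was at 0.15 and 0.24. Of the receptors, the syndecan Sdc1 read 4123 and 4675 in TDAG51-/-, 1138 in TDAG51+/+ and 1578 in TDAG51-/-Tg2, 3.62-fold and 2.96-fold more, and no other of 13 passed against TDAG51+/+. Against TDAG51-/-Tg2, Sdc1 was the 1 of 12 higher, and 1 was lower, Itga5 at 2.07-fold.

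Marker genes of cells that make these proteins are given beside them. None of 12 endothelial genes was 2-fold apart in any comparison. Of them 9 had a log2 ratio above 0 against TDAG51+/+, among them Cdh5 (0.95), Kdr (0.92) and Cldn5 (0.51). Pecam1 (-0.37), Vwf (-0.19) and Slco1c1 (-0.14) lay below 0. The median was 0.50, beside 0.11 against TDAG51-/-Tg2 and 0.25 between TDAG51-/-Tg2 and TDAG51+/+. Summed over the list these genes read 60122 and 52128 in TDAG51-/-, 43875 in TDAG51+/+ and 48550 in TDAG51-/-Tg2. Flt1 alone gave 31871, 24857, 22617 and 25575 of these sums. Mural cell genes had medians of 0.27 and -0.10 in the comparisons with TDAG51-/-, with 1 of 11 apart on the second array, Rgs5 at -2.72. Of 17 meningeal and perivascular fibroblast genes, Foxc2 and Slc22a2 were higher than in TDAG51+/+ at 2.01-fold and 2.48-fold and Slc6a20 lower at 2.01-fold, with a median of 0.03. Against TDAG51-/-Tg2 none of the 17 passed. Between TDAG51-/-Tg2 and TDAG51+/+, however, 3 of 16 were higher and none lower, against 3.49% and 4.17% of all genes. These were Slc22a2 at 3.13-fold, Asgr1 at 2.46-fold and Foxc2 at 2.31-fold. The list's median was 0.32, while Slc6a20, Slc13a4, Slc6a13 and Slc22a6 lay at -0.99, -0.89, -0.64 and -0.61. The member probes higher in that comparison were those of Col1a1, Col25a1, Col3a1, Col11a1, Col14a1, Col8a1, Col23a1 and Lama4. The other Col1a1 probes lay at -0.27 and -0.09, another Col3a1 probe at -0.09 and Col1a2 at -0.36. Dcn was at -0.02 and -0.06 on its probes and Lum at 0.15. Of 10 choroid plexus genes, Kcne2 (3.03-fold) and Otx2 (2.79-fold) were higher and Aqp1 (2.65-fold) lower than in TDAG51+/+, Kcne2 (2.25-fold) was higher than in TDAG51-/-Tg2, and Aqp1 (2.41-fold) and Folr1 (2.14-fold) were lower in TDAG51-/-Tg2 than in TDAG51+/+. Their medians were 0.58, 0.49 and 0.15. The part of these cells in the matrix values was not tested.

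**Figure D4:**
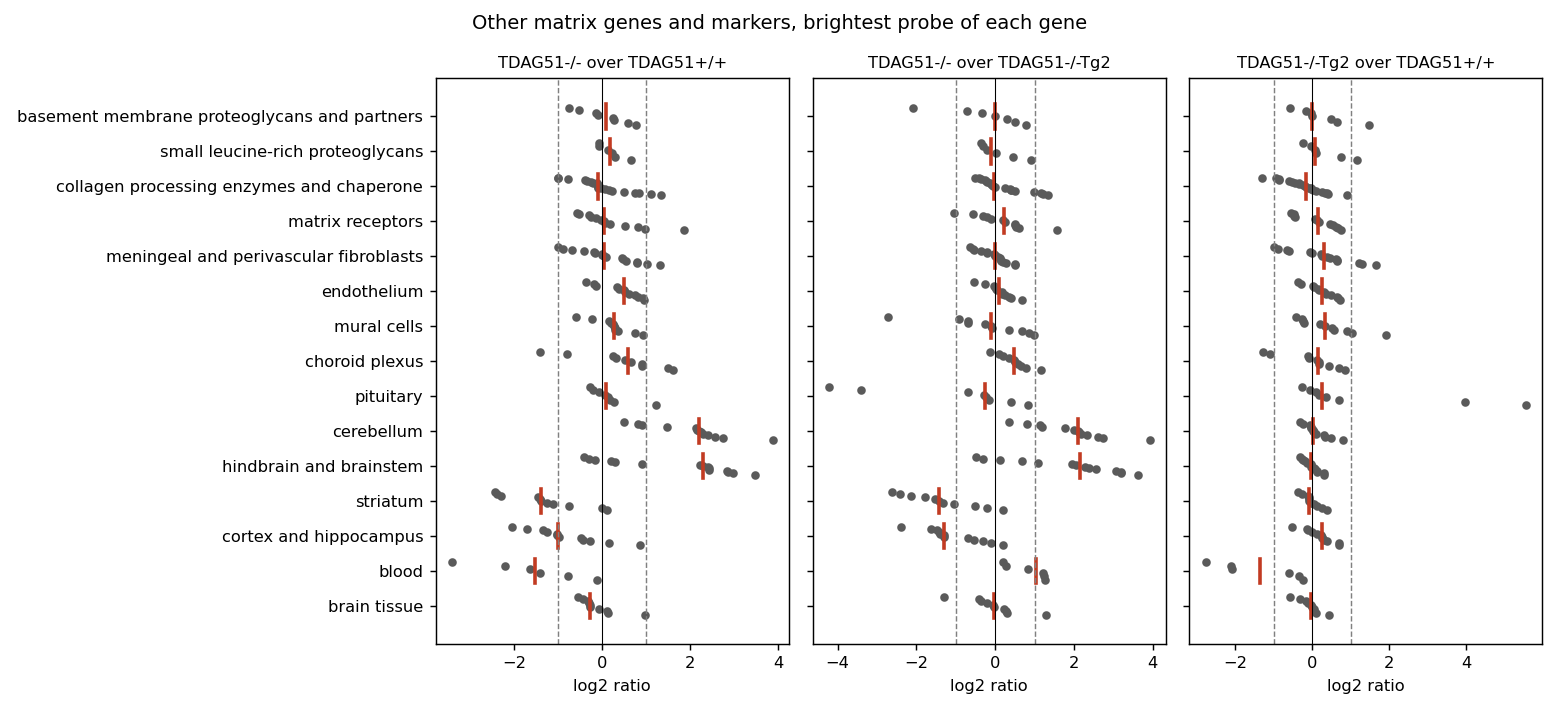
Log2 ratio (x axis) of the brightest probe of each gene (points) in lists of other matrix genes and of markers (rows), with the list median (red bar) and the 2-fold cutoffs (dashed), in 3 comparisons (panels). Cerebellar and hindbrain markers have medians over 2 in both comparisons with TDAG51-/- brain and near 0 between the controls, whereas the medians of the matrix lists lie within 0.23 of 0 in all panels.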

How the data were processed

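Whole-brain cDNA of each genotype was hybridized by the authors to Agilent whole mouse genome arrays, and the deposited scanner files (Feature Extraction 9.5.3.1, coordinates on mm7) hold Cy3 and Cy5 intensity values per spot and a log10 ratio per the file headers. The deposited value table holds a log2 ratio per probe, whose direction and centering are not stated in it. Its columns had medians of -0.011 and -0.010 and, across probes, followed the scanner's log2 ratio of TDAG51-/- over control (r of 0.982 and 0.984), so only its exact normalization stays unknown. These and the scanner's ratio served as alternatives.

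Mean intensities were background-corrected with limma 3.58.1 (normexp, offset 50) in R 4.3.3, and ratios were loess-normalized within arrays with control and outlier spots at weight 0. Spots of a probe were averaged and ratios turned to TDAG51-/- over control. For intensities and the Cy5 comparison across arrays, average intensities were quantile-normalized (Aquantile). Where a channel was not well above background, a fold is a lower bound, taken against the higher of the probe's own value and the lowest signal of that channel among probes above background. The offset shrinks ratios of dim probes. In 193 probes every spot was an outlier on an array. Tables were summarized in Python 3.11.15 with pandas 2.3.3. The ratio and call step was tested on simulated data, with brighter probes and larger changes than many of those called here. That test does not cover calls on dim probes or ratios near 2-fold. Precision is limited by 1 array per comparison: median raw intensities were 338.2 and 363.8 (Cy3 and Cy5, first array) and 336.1 and 385.0 (second), over median backgrounds of 39.0 to 44.0.

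Groups came from the sample labels, and no test was run, since no group has a replicate. The members and the lists of classes, partners and markers were chosen with earlier results of these data known. Named in the text are members with a probe past 2-fold, every fibrillar, basement membrane, laminin, nidogen and interstitial gene at least by range (1 member enters the counts but is not reported here by itself), and from each other list at most 4 genes past 2-fold. Some further genes were chosen after their values were seen. Below 2-fold these were Cdh5, Kdr, Cldn5, Flt1, Pecam1, Vwf, Slco1c1, Slc13a4, Slc6a13, Slc22a6 and Serpinh1. Past it they were Gh, Prl and Rgs5, given as values beside Col1a1. All 111 probes matched the RefSeq gene table (GRCm38.p6, used for names only), 78 by accession, 30 by symbol and 3 by synonym. Protein sequences and promoters were not used here.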

Additional observations from a re-analysis of the deposited data

How the results depend on the processing

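Counts of probes past 2-fold are given as higher or lower, in the order of the comparisons TDAG51-/- over TDAG51+/+ (13 and 4), TDAG51-/- over TDAG51-/-Tg2 (5 and 3) and TDAG51-/-Tg2 over TDAG51+/+ (9 and 2). With an offset of 0 there were 7 lower in the first, 10 higher and 9 lower in the second and 15 higher and 5 lower in the third, while the shares over all probes were 6.68% to 9.08%. The scanner software's ratio gave 21 and 8, then 13 and 13, then 18 and 5, and the deposited ratio 20 and 9, 12 and 14, and 18 and 5. Under both, the shares over all probes were larger too, between 6.90% and 11.6% in each direction. Without normalization within the array, the second comparison had 3 higher and 8 lower and a median of -0.16, beside 2.77%, 8.71% and a median of -0.25 over all probes. With both channels above background, or with folds counted by their lower bound, 1 was lower in the third. By the brightest probe of a gene there were 8 higher in the first, 3 and 1 in the second and 4 and 1 in the third. By the median of a gene's probes there were 6 and 1, then 2 and 0, then 0 and 1. The shares over all genes by that median were 4.13% and 4.1%, then 4.12% and 3.42%, then 3.02% and 3.7%. So no gene was higher in the third comparison by this measure, where 9 single probes were. Both counts by gene are over fewer units, 52 to 54 genes. Median centering, no filter, outlier spots kept, saturated probes left out, quantile normalization of all channels, the difference of both ratios and, chosen after seeing the data, Col4a3bp counted as a member left each count within 1.5 times and each median within 0.15, the robust SD between the TDAG51-/- channels. Of 36 values past 2-fold, 31 stayed past it in the same direction under every alternative that kept the probe, and none turned in direction. The exceptions were Col8a2 (0.85) and Lamb1-1 (0.97) over TDAG51+/+ and Col6a1 (0.88) and Col27a1 (0.89) over TDAG51-/-Tg2, without normalization, and Col16a1 (-0.81) in the third comparison by its bound. Of the same 36, 12 moved by over 1.5 times. With the scanner's ratio, the log2 values over TDAG51+/+ became 3.29 for Col5a3 (from 2.48), 3.29 for Col25a1 (1.71), 3.87 for Col23a1 (1.86) and 2.09 for Col11a1 (1.38), and over TDAG51-/-Tg2 2.75 for Col23a1 (1.54) and -4.68 for Col1a1 (-3.96). In the third comparison they became 5.19 for Col1a1 (4.51), 3.79 for Col25a1 (2.11), 2.74 for Col14a1 (1.32), -2.73 for Col16a1 (-1.05) and 1.70 for Lama4 (1.09), and by the difference of both ratios -1.20 for Col15a1 (-2.10). No paired analysis was possible because each comparison holds 1 array. Depth of signal limits the 12 probes above background in no channel, of which nothing can be said.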
